A study of Rattus norvegicus with 39 samples.

Results

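The leucine transfer RNA (tRNA) genes were followed in the small RNA of rat sperm. The members are the rows of the genomic tRNA count table whose name carries Leu directly after the tRNA number, 29 of 402 genes. Genes with identical counts in every library could not be told apart and were taken as 1 row, which left 16 distinct leucine rows of 242. The rows were also summed into the 5 leucine anticodons (LeuAAG, LeuCAA, LeuCAG, LeuTAA and LeuTAG) of 49 anticodons in the table.

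The libraries came from cauda epididymal sperm of adult wild-type male Fischer rats aged 11 to 12 weeks. By oral gavage over 5 days the males were given EGME (ethylene glycol monomethyl ether), a solvent known as a testicular toxicant, in water. The doses were 50, 60 or 75 mg/kg/d, called EGME50, EGME60 and EGME75. Controls (EGME0) received the water vehicle, and sperm of all groups were taken 5 weeks after the last exposure. Each library held the RNA of 1 male, with n = 10, 10, 9 and 10 from EGME0 to EGME75, and 3 libraries shared each of 13 sequencing chips.

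A tRNA reads codons of the messenger RNA with its anticodon and delivers the matching amino acid. Among the leucine tRNAs, LeuTAA and LeuCAA read the codons that begin with UU, while LeuAAG, LeuTAG and LeuCAG read those that begin with CU. Leucine tRNAs belong to the class with a long variable arm, together with serine and selenocysteine tRNAs. Mature sperm carry much of their small RNA as fragments cut from tRNAs. The counts used here do not tell such fragments from full-length tRNAs.

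The distinct tRNA rows held 52085 to 5545434 counts per library (group medians 2758159, 3219334, 2707753 and 1434858 from EGME0 to EGME75), of which 5643 to 568265 were leucine counts. The library with the fewest counts was EGME75 replicate 24. Marker miRNAs of the germ cells and of other cell types were looked at without a test. Their ranges at EGME0 and EGME75 overlapped for germ cells, blood cells and muscle, but not for epithelium. The germ cell miRNAs miR-34b, miR-34c and miR-449a (5 of 5 arms present) made up 19.8 to 33.1% of the miRNA counts at EGME0 and 6.48 to 22.1% at EGME75. The epithelial miRNAs of the miR-200 family (5 of 5 present) made up 0.625 to 1.29% at EGME0 and 1.81 to 4.77% at EGME75. Blood cell miRNAs (5 of 7 with counts at EGME75, miR-144-3p at 0 and miR-486-5p not among the counted miRNAs) made up 0 to 0.343% and 0.248 to 4.82%. Muscle miRNAs (3 of 4 with counts at EGME75) made up 0.954 to 3.27% and 1.12 to 9.80%. Of the muscle miRNAs, miR-1-3p had counts at EGME0 and was at 0 at EGME75. From EGME0 to EGME75 the group medians were 26.3, 21.5, 15.3 and 13.3% for germ cells and 0.872, 1.645, 1.42 and 2.49% for epithelium. For blood cells they were 0.114, 0.289, 0.837 and 0.7885%, and for muscle 1.67, 2.33, 3.63 and 3.70%. The part of these cells in the leucine results was not tested, and in bulk RNA fewer cells of a type and less RNA per cell cannot be told apart. The miRNA table held only 139 to 38208 counts per library, which limits these shares.

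The 29 leucine genes were spread unevenly over the anticodons. LeuCAG had the most genes, 14 in 5 distinct rows, of which 1 row stood for 7 genes and another for 4. LeuAAG had 6 genes in 3 rows, LeuTAG 4 in 3 rows, LeuCAA 3 in 3 rows and LeuTAA 2 in 2 rows. Some rows that did not match exactly were close to copies in their counts. The LeuTAG row chr10.trna2467 and the LeuAAG row chr17.trna3807 (names give the chromosome and the tRNA number as in the deposited table) differed by a factor of 0.952 to 1.041 over the 39 libraries. The LeuCAA rows chr10.trna11369 and chr17.trna1681 differed by a factor of 0.989 to 1.058, and the LeuCAG rows chr13.trna2162 and chr13.trna2168 by 1 to 1.156. Reads of such rows may be shared, and how the counting treated reads that fit several genes is not given in the sources used here. Rows chr10.trna2467 and chr17.trna3807 carry different anticodons, so part of the LeuTAG and LeuAAG sums could not be told apart.

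The number of genes did not set the order of the counts, which were not divided by length. LeuAAG held 3.91% of the tRNA counts on average (rank 8 of 49), LeuTAG 2.69% (rank 12) and LeuCAA 1.41% (rank 17). LeuTAA held 0.716% (rank 24), and LeuCAG, with the most genes, 0.208% (rank 36). A few rows carried most of the leucine counts: chr1.trna5254-LeuAAG, which stands for 3 genes, held 26.02% on average. The near copies chr17.trna3807-LeuAAG and chr10.trna2467-LeuTAG held 15.7% each, and chr1.trna11779-LeuTAG held 13.1%.

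The first question was whether the leucine tRNAs as a whole took another share of the tRNA counts after exposure. Their share was 7.70% ± 0.816 (SD, n = 10) at EGME0, 8.16% ± 1.23 (n = 10) at EGME50, 10.0% ± 3.24 (n = 9) at EGME60 and 9.96% ± 2.20 (n = 10) at EGME75. The ranges overlapped at every dose, from 6.21 to 9.08% at EGME0 and from 7.27 to 13.7% at EGME75. The share lay above the control median in 5 of 10, 8 of 9 and 9 of 10 males at the rising doses. Within chips that held both groups, the differences from control were 0.271, 1.098 and 1.723 percentage points, against 0.463, 2.35 and 2.27 over all libraries. The sum over the members was not given a test.

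At EGME75 the anticodons of the UU codons fell and those of the CU codons did not pass the test. The levels are counts per 1000000 (CPM) after scaling each library by the trimmed mean of M-values (TMM), and each dose was compared with control by edgeR's quasi-likelihood test over all 47 anticodons with enough counts (Benjamini-Hochberg adjustment, threshold 0.05). Of the 5 leucine anticodons, 2 passed at EGME75, both lower, where 53.2% of all anticodons passed (23.4% higher and 29.8% lower). So a call as such was common at this dose.

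LeuCAA ran from 12667 through a median of 19067 to 35419 CPM at EGME0 and from 1909 through 7349 to 12048 CPM at EGME75. Its level was below the lowest control in 10 of 10 males. How many of all anticodons were set apart from control in this way was not counted. The gap is therefore not shown to be particular to LeuCAA. LeuCAA fell by 1.45 on the log2 scale (SE 0.243, edgeR adjusted p = 2.39e-06). LeuTAA ran from 5216 through 10461 to 15963 CPM at EGME0 and from 964 through 3884 to 5804 CPM at EGME75. Here 9 of 10 males lay below the lowest control. LeuTAA fell by 1.45 (SE 0.242, edgeR adjusted p = 2.39e-06). Both calls held with the chip as a block, at -1.25 for LeuCAA and -1.42 for LeuTAA, and in every other fit run.

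**Figure D1:**
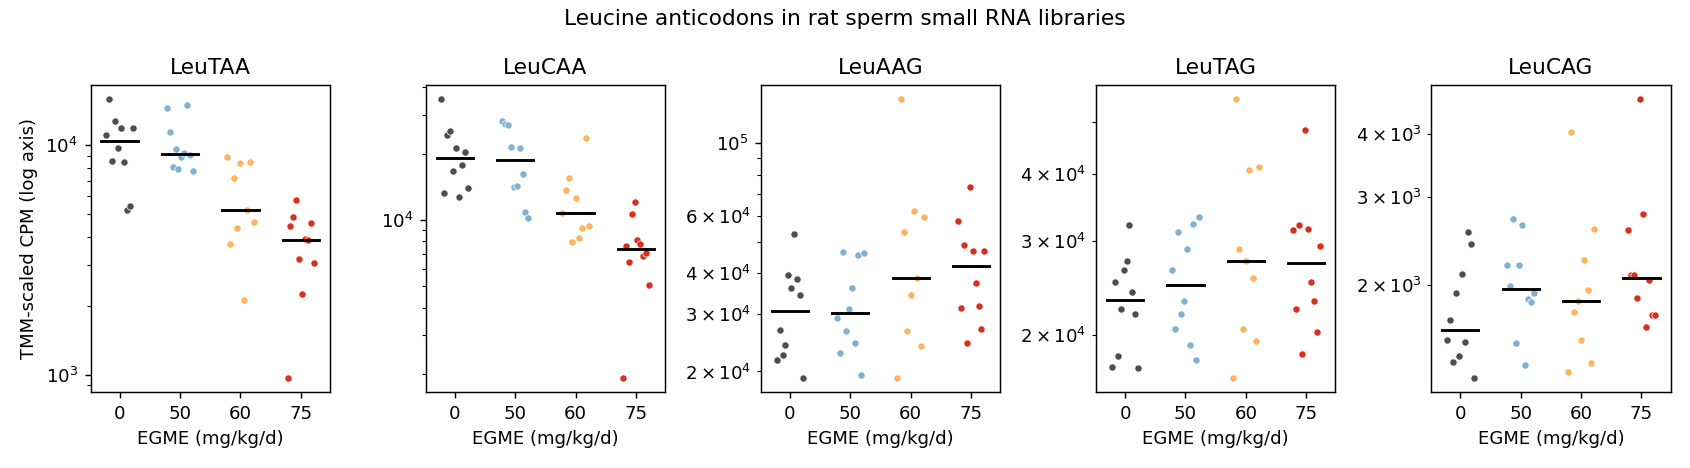
Levels of the 5 leucine anticodons in every library, as TMM-scaled CPM on a log axis, by EGME dose in mg/kg/d. Each point is 1 male and each bar is the group median. LeuCAA and LeuTAA lie lower at 60 and 75 mg/kg/d, with medians of 7349 and 3884 CPM at the top dose against 19067 and 10461 in controls, while the points of LeuAAG, LeuTAG and LeuCAG overlap between all doses.

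The anticodons of the CU codons were on the other side of 0 at EGME75. LeuAAG had medians of 30555 CPM at EGME0 and 41964 CPM at EGME75 (log2 difference 0.44, SE 0.256, edgeR adjusted p = 0.142), with 2 of 10 males above the highest control. LeuTAG had medians of 23244 and 27244 CPM (0.28, SE 0.185, edgeR adjusted p = 0.202). LeuCAG had medians of 1634 and 2072 CPM (0.37, SE 0.185, edgeR adjusted p = 0.0803), with 10 of 10 males above the control median and 3 above the highest control. The groups overlapped for each of the 3. LeuCAG passed without EGME0 replicate 26 (0.44) or 33 (0.49), and with all rows kept as deposited (0.51, edgeR adjusted p = 0.0326). The scaling bears on these calls: with library totals alone in place of TMM, LeuAAG, LeuTAG and LeuCAG also passed, at 0.86, 0.70 and 0.76. That scaling moved the median of all anticodons at EGME75 from 0.04 to 0.46, and 28 of 38 calls were then higher against 11 of 25. Set against the median of all anticodons, the values moved little: LeuAAG was 0.39 above it with TMM and 0.40 with library totals, LeuCAG 0.33 and 0.30, and LeuTAG 0.23 and 0.24. On the same footing LeuCAA was at -1.49 and -1.53 and LeuTAA at -1.496 and -1.481.

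At the middle dose the same 2 anticodons were lower and LeuAAG was higher. At EGME60, 3 of 5 leucine anticodons passed against 31.9% of all anticodons (14.9% higher and 17% lower; 7 of 15 calls were higher, and 10 of 13 with library totals). LeuTAA had a median of 5221 CPM, from 2126 to 8863, and fell by 0.78 (SE 0.246, edgeR adjusted p = 0.0166), with 4 of 9 males below the lowest control. LeuCAA had a median of 10774 CPM, from 7928 to 23565, and fell by 0.71 (SE 0.247, edgeR adjusted p = 0.0309), with 6 of 9 below the lowest control. LeuAAG had a median of 38535 CPM and ran from 19106 to 136698 CPM, the highest value being EGME60 replicate 6. It rose by 0.68 (SE 0.263, edgeR adjusted p = 0.0410), but without that library the difference was 0.33 (adjusted p = 0.359). LeuTAG (0.39, SE 0.190, adjusted p = 0.114) and LeuCAG (0.21, SE 0.189, adjusted p = 0.473) did not pass. LeuTAG passed without EGME60 replicate 5 (0.475, edgeR adjusted p = 0.0483).

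None of the 3 calls at EGME60 held with the chip as a fixed block (edgeR adjusted p = 0.0714 for LeuTAA, 0.104 for LeuCAA and 0.296 for LeuAAG). With library totals alone LeuCAA (-0.54, adjusted p = 0.0671) and LeuTAA (-0.56, adjusted p = 0.0639) were also lost, while LeuAAG stayed past the threshold (0.82) and LeuTAG passed as higher (0.59, adjusted p = 0.00727). That scaling moved the median of all anticodons at EGME60 from 0.02 to 0.24. Set against that median, LeuCAA was at -0.72 with TMM and -0.78 with library totals, and LeuTAA at -0.80 and -0.81. On the same footing LeuAAG was at 0.66 and 0.57, LeuTAG at 0.38 and 0.34 and LeuCAG at 0.20 and 0.14. LeuAAG was also lost with relative log expression scaling, with scaling without GlyGCC, SerGCT and MetCAT, with limma-voom with or without the chip as a random term, with only the compared groups and with its largest row alone (0.49 to 0.75). LeuCAA also missed the threshold without any one of EGME0 replicates 1 and 10 or EGME60 replicates 14, 22 and 29. LeuAAG missed it in 10 of 19 fits that left out 1 library (EGME0 replicates 1, 2, 9, 10, 18 and 34 and EGME60 replicates 6, 13, 22 and 29), and LeuTAA in none.

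At the lowest dose none of the 5 leucine anticodons passed, by edgeR, DESeq2 or limma-voom, 0 had an unadjusted edgeR p under 0.05, and 0% of all 47 anticodons passed. The log2 differences from control ran from -0.08 (LeuCAA) to 0.18 (LeuCAG), with edgeR adjusted p of at least 0.904. The median of LeuCAA was 18680 CPM and that of LeuTAA 9192 CPM, close to the controls.

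Over the 4 doses, LeuTAA and LeuCAA had slopes of -1.20 and -1.18 (log2 change over 75 mg/kg/d, SE 0.291 and 0.281, edgeR adjusted p = 0.00072 and 0.00058). Of all anticodons, 48.9% had a slope past the threshold (21.3% rising and 27.7% falling). Of these calls, 10 of 23 were rising, and 24 of 33 with library totals. LeuAAG, LeuCAG and LeuTAG had slopes of 0.53, 0.34 and 0.33 that did not pass (edgeR adjusted p from 0.0850 to 0.119). All 3 passed without EGME50 replicate 12 or EGME60 replicate 38, at 0.37 to 0.59; LeuAAG and LeuCAG also without EGME0 replicate 33 (0.61 and 0.44), LeuAAG without EGME0 replicate 25 (0.65), EGME50 replicate 28 (0.60) or EGME75 replicate 24 (0.59), and LeuCAG without EGME0 replicate 26 (0.42). Neighbouring doses were also compared. LeuTAA fell by 0.79 from EGME50 to EGME60 (edgeR adjusted p = 0.0447), where 10.6% of anticodons passed, and LeuCAA differed by -0.63 (adjusted p = 0.0759). From EGME60 to EGME75, where 34% passed, LeuCAA fell by 0.74 (edgeR adjusted p = 0.0218) and LeuTAA by 0.67 (adjusted p = 0.0342). These steps were less steady than the comparison with control: with the chip as a fixed block no anticodon passed at either step. LeuTAA missed the threshold at the lower step without any one of EGME50 replicates 3, 4, 11, 19, 20, 27 and 28 or EGME60 replicates 6, 14, 22 and 38. At the upper step it did so without EGME60 replicates 5, 13, 21 or 30 or EGME75 replicates 7, 24 or 40, and LeuCAA without EGME60 replicate 30 or EGME75 replicate 7.

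The makeup of the leucine counts shows the same shift without any scaling between libraries, since each anticodon is set against the other leucine anticodons of the same male. LeuCAA made up 23.6% ± 8.47 (SD, n = 10) of the leucine counts at EGME0 and 9.29% ± 4.06 (n = 10) at EGME75. LeuTAA made up 12.0% ± 4.64 and 4.89% ± 2.60. Both were below the control median in 10 of 10 males. LeuAAG rose from 35.7% ± 7.89 to 49.7% ± 5.85 and LeuTAG from 26.7% ± 2.96 to 33.4% ± 1.25, each above the control median in 10 of 10 males. LeuCAG rose from 2.09% ± 0.488 to 2.76% ± 0.449, above the control median in 9 of 10. Mean shares were compared by a two-sided permutation test (100000 resamples), with Benjamini-Hochberg adjustment over 15 tests (5 anticodons at 3 doses), and all 5 passed at EGME75. The adjusted p was 0.00045 for LeuCAA, 0.00195 for both LeuTAA and LeuAAG, 0.0003 for LeuTAG and 0.0194 for LeuCAG.

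**Figure D2:**
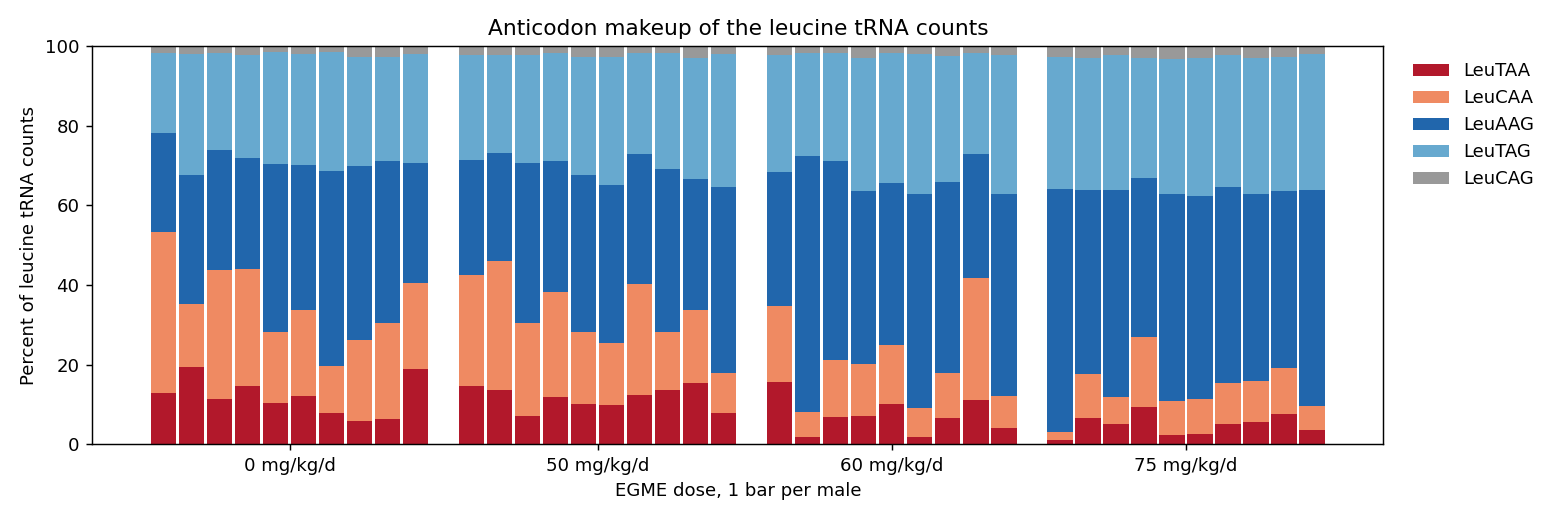
Share of each anticodon in the leucine tRNA counts, in percent, with 1 bar per male and the males grouped by EGME dose in mg/kg/d. The LeuCAA and LeuTAA parts together shrink at the higher doses, from means of 23.6 and 12.0% in controls to 9.29 and 4.89% at 75 mg/kg/d, and the LeuAAG and LeuTAG parts are larger there.

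Shares of 1 whole move against each other, so the rise of some is tied to the fall of others. Within the 6 chips that held both EGME0 and EGME75, the mean differences were -14.7 points for LeuCAA, -7.88 for LeuTAA, 14.8 for LeuAAG, 7.06 for LeuTAG and 0.798 for LeuCAG, each with the same sign on all 6 chips. When identical rows were counted each time they appear, as deposited, LeuTAG rose by only 1.08 points (permutation test, adjusted p = 0.167) and LeuCAG by 0.951 (adjusted p = 0.0985), and neither passed.

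At EGME60 the makeup was between those of EGME0 and EGME75. LeuAAG made up 46.2% ± 10.2 (n = 9, exact permutation test, adjusted p = 0.0428), LeuTAG 30.6% ± 3.84 (n = 9, exact permutation test, adjusted p = 0.0428) and LeuCAA 13.9% ± 7.49 (n = 9, exact permutation test, adjusted p = 0.0427). LeuTAA at 7.17% ± 4.51 (exact permutation test, adjusted p = 0.0603) and LeuCAG at 2.14% ± 0.427 (adjusted p = 0.870) did not pass. Within the 5 chips that held both groups the shift was 4.07 points for LeuAAG, against 10.5 over all libraries, and -3.17 against -9.66 for LeuCAA. For LeuTAG it was 1.23 against 3.91 points, with 3 of 5 chips higher. Those chips left out EGME60 replicates 22 and 38 and some of the controls. Whether the chip or the males left out made the difference was not tested. The 3 calls came to between 0 and 4 when 1 library was left out: without EGME0 replicates 1, 9, 10, 18 or 34 or EGME60 replicates 14, 22, 29 or 38, each of the 3 was lost. LeuAAG was also lost without EGME0 replicate 2 or EGME60 replicates 6 or 13, LeuCAA without EGME60 replicate 6, and LeuTAG without EGME0 replicate 33 or EGME60 replicate 21. At EGME50 no share differed past the threshold (adjusted p from 0.310 to 0.870, permutation test).

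The changes were then followed in the separate rows. Some rows stand for several genes and others are near copies that may share reads. The rows therefore do not show which genes carried the changes. Of the 16 distinct leucine rows, all 16 had enough counts for the test, and 11 passed at EGME75, 6 higher and 5 lower. Over all 190 rows tested, 64.7% passed at EGME75 (36.8% higher and 27.9% lower), so the leucine count was near the background. Of the calls over all rows, 70 of 123 were higher, and 87 of 125 with library totals. The median log2 difference of the leucine rows was 0.19, against 0.16 over all rows.

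All 3 LeuCAA rows fell at EGME75. Row chr10.trna11369 ran from 4142 through 6963 to 11693 CPM at EGME0 and from 820 through 2625 to 4615 CPM at EGME75, and fell by 1.32 (edgeR adjusted p = 1.39e-05). Its near copy chr17.trna1681 fell by 1.32 and chr17.trna3814 by 1.15 (edgeR adjusted p = 1.43e-05 and 3.62e-05). Of the LeuTAA rows, chr1.trna16829 ran from 4424 through 9766 to 15045 CPM at EGME0 and from 1036 through 3451 to 5472 CPM at EGME75. It fell by 1.39 (SE 0.244, edgeR adjusted p = 7.63e-06). The 4 rows kept these calls in every alternative fit, and 9 of 10 EGME75 males lay below the lowest control for each.

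The LeuCAG rows went in both directions. Row chr13.trna2173 ran from 131 through 199 to 350 CPM at EGME0 and from 324 through 377 to 1215 CPM at EGME75, with 7 of 10 males above the highest control. It rose by 1.31 (SE 0.277, edgeR adjusted p = 9.41e-05) and kept that call in every alternative fit, at 0.99 with the chip as a block. Row chr13_random.trna29, on a part of chromosome 13 not placed in the assembly, ran from 140 through 182 to 316 CPM at EGME0 and from 76.7 through 134 to 210 CPM at EGME75. It fell by 0.55 (SE 0.221, edgeR adjusted p = 0.0270), with 5 of 10 males below the lowest control. That call was lost with library totals (-0.34), with the chip as a block (-0.30), and without EGME0 replicates 26 or 33 or EGME75 replicate 39 (the smallest of these -0.46). Row chr13.trna2168, which stands for 7 genes, rose by 0.73 and its near copy chr13.trna2162, which stands for 4, by 0.68 (edgeR adjusted p = 0.00789 and 0.0120). Without EGME75 replicate 7 they were at 0.44 and 0.40 and did not pass, and chr13.trna2162 did not pass without EGME75 replicate 24 (0.46). Each of the 2 rows also lost its call in 2 alternative settings and kept it in 9. The fifth LeuCAG row, chr13.trna3641, was at -0.03 (edgeR adjusted p = 0.902).

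The large rows of the CU codons moved less. At EGME75, chr17.trna3807-LeuAAG rose by 0.58 (SE 0.238), chr10.trna2467-LeuTAG by 0.54 (SE 0.238) and chr1.trna11779-LeuTAG by 0.45 (SE 0.195), with edgeR adjusted p of 0.0316, 0.0431 and 0.0424. Their ranges overlapped those of the controls, with 4, 4 and 6 of 10 males above the highest control. These 3 calls were not steady. Each was lost with the chip as a block (0.43, 0.40 and 0.31), without any one of EGME75 replicates 7, 23, 24, 31 and 40, and without any one of EGME0 replicates 1, 9 and 34. The lowest of these values were 0.32, 0.28 and 0.19. With all rows kept as deposited, these 3 rows and both near copies of LeuCAG were at 0.09 to 0.36 and did not pass. Over all alternative settings, the call of chr17.trna3807 was lost in 4 and kept in 7. That of chr10.trna2467 was lost in 6 and kept in 5, and that of chr1.trna11779 lost in 7 and kept in 4. The call of chr10.trna2467 was also lost without EGME0 replicates 10, 26 or 33, and that of chr1.trna11779 without EGME0 replicates 26 or 33 or EGME75 replicate 15. The largest leucine row, chr1.trna5254-LeuAAG, had medians of 17131 and 28697 CPM and a difference of 0.68 (SE 0.326, edgeR adjusted p = 0.0645). It passed with library totals (0.90), DESeq2 (0.66) or only the compared groups (0.61), and without EGME0 replicates 17 or 25 or EGME75 replicates 16 or 39 (0.76 to 0.80).

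**Figure D3:**
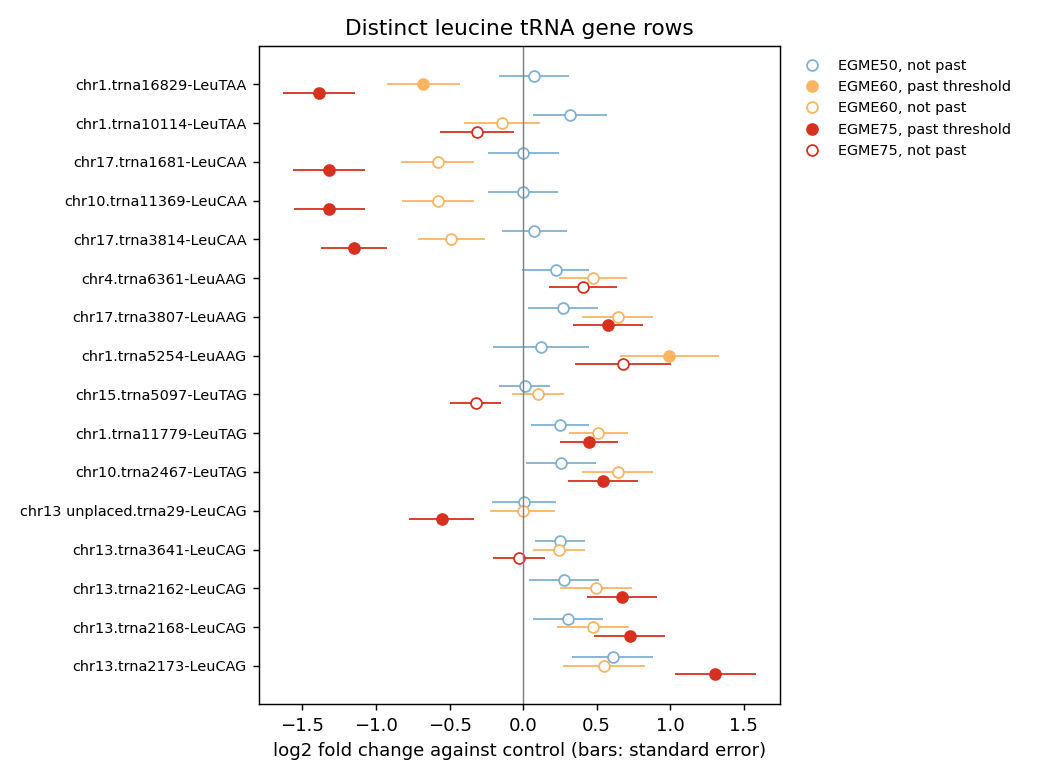
Log2 fold change against control of the 16 distinct leucine tRNA gene rows at each dose, with standard errors as bars. Filled points passed the edgeR threshold of 0.05 after adjustment and open points did not. At 75 mg/kg/d the 3 LeuCAA rows and chr1.trna16829-LeuTAA lie between -1.39 and -1.15, and chr13.trna2173-LeuCAG lies highest, at 1.31.

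At EGME60, 2 of 16 rows passed, against 21.6% of all rows (18.9% higher and 2.63% lower). Of the calls over all rows at this dose, 36 of 41 were higher, against 42 of 57 with library totals and 34 of 60 with relative log expression scaling. Row chr1.trna5254-LeuAAG rose by 0.99 (SE 0.335, edgeR adjusted p = 0.0244), which came to 0.51 and did not pass without EGME60 replicate 6, and was also lost without EGME0 replicate 34 or EGME60 replicate 38. Row chr1.trna16829-LeuTAA fell by 0.68 (SE 0.248, edgeR adjusted p = 0.0419), a call lost in 10 of 19 fits that left out 1 library (EGME0 replicates 1, 2, 10, 17, 18 and 34 and EGME60 replicates 6, 14, 22 and 29). At EGME50, 0 of 16 rows passed by edgeR, DESeq2 or limma-voom and 0% of all rows by edgeR. At an unadjusted p under 0.05 there was 1, chr13.trna2173-LeuCAG at 0.61 (adjusted p = 0.572). For the slope on dose, 11 rows passed, 7 rising and 4 falling, against 61.1% of all rows (37.9% and 23.2%). The rising rows included chr1.trna5254-LeuAAG at 0.81 (edgeR adjusted p = 0.0303) and chr13.trna2173-LeuCAG at 1.15 (edgeR adjusted p = 0.0005), and chr13_random.trna29-LeuCAG, at -0.36, was not among the falling ones.

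Rows with one anticodon did not always move together. The count ratio of such a pair within a library needs no scaling, and all 20 pairs of rows that share an anticodon were compared at each dose (log2 of the ratio after adding 0.5 to each count). This comparison was chosen after the row values had been seen. After adjustment over 60 permutation tests, 1, 4 and 14 of 20 pairs differed from control at EGME50, EGME60 and EGME75. Pairs that share a row are not independent of each other. Such ratios were not computed for the other tRNA rows, so no background share stands beside these counts. They do not show that leucine rows differ from other tRNA rows in this.

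The LeuTAA rows were one such pair. At EGME0 the log2 ratio of chr1.trna16829 to chr1.trna10114 was 4.26 ± 0.266 (SD, n = 10) with a range of 3.995 to 4.708, and at EGME75 it was 3.12 ± 0.458 (n = 10) with a range of 2.27 to 3.62. All 10 EGME75 males lay below the lowest control, a difference of -1.14 (permutation test, adjusted p = 0.00024, from the smallest p that 100000 resamples can give, 2e-05). The smaller row, chr1.trna10114, ran from 176 through 480 to 923 CPM at EGME0 and from 174 through 375 to 695 CPM at EGME75 (log2 difference -0.31, edgeR adjusted p = 0.279). With all rows kept as deposited it was at -0.61 and passed as lower (adjusted p = 0.048). The test of the ratio, and not the separate calls, shows that the large LeuTAA row changed more than the small one. At EGME60 the difference in log2 ratio was -0.62 (n = 9, exact permutation test, adjusted p = 0.0227), and at EGME50 -0.31 (permutation test, adjusted p = 0.0356). Within chips the differences were -0.511, -0.239 and -1.07 at the rising doses, with 6 of 6, 4 of 5 and 6 of 6 chips lower. The EGME50 call was lost without any one of EGME0 replicates 1, 9, 25 and 33 or EGME50 replicates 12, 19, 20 and 35.

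**Figure D4:**
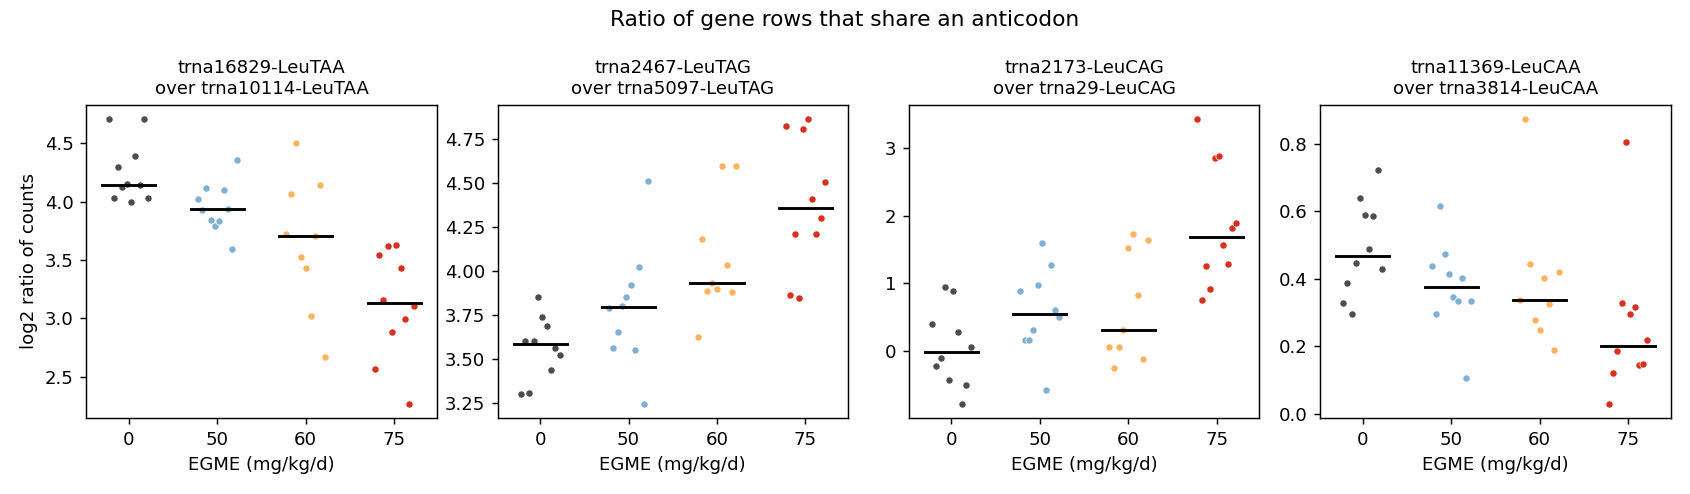
Log2 ratio of counts of 4 pairs of rows that share an anticodon, by EGME dose in mg/kg/d. Each point is 1 male and each bar is the group median. The ratio of the 2 LeuTAA rows lies between 2.27 and 3.62 at 75 mg/kg/d, below all control values of 3.995 to 4.708. The LeuTAG and LeuCAG medians are higher at 75 mg/kg/d than in controls. Those of LeuCAG are -0.02, 0.55, 0.31 and 1.69 from 0 to 75 mg/kg/d.

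In LeuTAG the large rows moved away from the small one. The log2 ratio of chr10.trna2467 to chr15.trna5097, which stands for 2 genes, was 3.56 ± 0.177 (n = 10) at EGME0 and 4.38 ± 0.373 (n = 10) at EGME75, above the highest control in 9 of 10 males. The difference was 0.82 (permutation test, adjusted p = 0.00024) and 0.84 within chips, higher on 6 of 6. At EGME60 it was 0.51 (n = 9, exact permutation test, adjusted p = 0.00173), with 8 of 9 males above the highest control and 0.252 within chips. Against the same small row, chr1.trna11779 was up by 0.75 at EGME75 (permutation test, adjusted p = 0.00024), above the highest control in 10 of 10 males. Row chr15.trna5097 itself had medians of 946 and 764 CPM (log2 difference -0.32, edgeR adjusted p = 0.101). It passed as lower without any one of EGME75 replicates 7, 24, 31 and 40 (-0.55 to -0.49), and when all rows were kept as deposited (-0.66), with no filter (-0.51), with DESeq2 (-0.35) and with only the compared groups (-0.42). Rows chr1.trna10114-LeuTAA and chr15.trna5097-LeuTAG were singled out after their values were seen.

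In LeuCAG the log2 ratio of chr13.trna2173 to chr13_random.trna29 was 0.06 ± 0.578 (n = 10) at EGME0 and 1.86 ± 0.906 (n = 10) at EGME75. The difference of 1.81 (permutation test, adjusted p = 0.0004) was 1.71 within chips, higher on 6 of 6, and 8 of 10 males lay above the highest control. At EGME50 and EGME60 the differences were 0.53 and 0.58 and did not pass (permutation test, adjusted p = 0.150 and 0.155). At EGME75, row chr13.trna2162 rose against chr13_random.trna29 by 1.22 (permutation test, adjusted p = 0.00024), above the highest control in 10 of 10 males. In LeuCAA the log2 ratio of chr10.trna11369 to chr17.trna3814 was 0.49 ± 0.139 at EGME0 and 0.26 ± 0.214 at EGME75 (n = 10 each, permutation test, adjusted p = 0.0356), and -0.123 within chips. That call was lost in 11 of 20 tests that left out 1 library (EGME0 replicates 17, 18, 25, 26 and 33 and EGME75 replicates 7, 8, 15, 32, 39 and 40).

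The leucine anticodons fell into 2 patterns over the libraries. Across the 39 libraries, the log2 CPM of LeuAAG and LeuTAG had a Pearson r of 0.954, a pair that shares near copies, and LeuCAA and LeuTAA one of 0.782. LeuCAG had r of 0.720 with LeuTAG and 0.701 with LeuAAG. The 6 pairs between the patterns had r from -0.544 (LeuAAG and LeuTAA) to -0.173 (LeuCAA and LeuCAG). These correlations describe libraries that share doses, chips and a sum of counts, and carry no test. Among the anticodons of other amino acids, those closest to LeuTAA were SerGCT (r = 0.915), SerAGA (0.899) and SerTGA (0.881). Those closest to LeuCAA were SerAGA (0.846), IleAAT (0.842) and SerGCT (0.842). Those closest to LeuAAG were MetCAT (0.793), GluTTC (0.700) and LysCTT (0.640), and the same 3 were closest to LeuTAG (0.772, 0.614 and 0.597). Outside leucine, LeuCAG was closest to MetCAT (0.814), TyrGTA (0.509) and ValCAC (0.475).

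Serine and selenocysteine tRNAs, the others with a long variable arm, had 26 genes and 5 tested anticodons, of which 4 fell and 0 rose at EGME75, with a median log2 difference of -1.24 against 0.04 over all anticodons. Of all anticodons, 29.8% passed as lower and 23.4% as higher at this dose. The 4 that fell were all serine anticodons. SerGCT fell by 1.504, SerAGA by 1.31, SerTGA by 1.24 and SerCGA by 0.93, and the selenocysteine anticodon TCA was at -0.43 (edgeR adjusted p = 0.0523). LeuCAA and LeuTAA lay within the range of the serine anticodons at this dose, and LeuAAG, LeuTAG and LeuCAG lay above it. Valine, isoleucine and methionine tRNAs, whose amino acids are charged by synthetases related to that of leucine, had 47 genes and 6 tested anticodons. At EGME75, ValAAC rose by 1.03 and MetCAT by 0.68 while IleAAT fell by 1.35, and the other 3 did not pass. At EGME60, 4 of 5 serine and selenocysteine anticodons fell, again all serine, and of the 6 others 1 rose and 1 fell. Of all anticodons, 17% passed as lower and 14.9% as higher at that dose. The selenocysteine anticodon was at 0.21 (edgeR adjusted p = 0.502).

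A second deposited table counted the same libraries on RNAcentral entries, which name tRNA-Leu without an anticodon. It held 21 such entries, of which 16 had enough counts and 9 were within 10% of one another in the median count ratio, so they are far fewer than 16 separate measurements. At EGME75, 10 of 16 were lower and 0 higher by edgeR, against 43.6% of all 2757 entries (24% lower). Their median log2 difference was -1.37, and -0.63 relative to the median of all entries. The 2 entries with the most counts (means of 2275 and 2357 per library) were at -0.57 each and did not pass (edgeR adjusted p = 0.194). No other tested entry had a mean above 197.3 counts. The 16 entries ran from -1.52 to 1.35. With relative log expression scaling 14 were lower, against 67.4% of all entries that passed in either direction, and with library totals alone 13, against 51.6%. The share of all entries that were lower was not counted for these 2 scalings. At EGME60, 0 of 16 passed by edgeR with TMM (1 at an unadjusted p under 0.05), against 20.7% of all entries (1.45% lower), with a median of -0.58, and 8 were lower when scaled by the relative log expression method (median -1.11), where 19.3% of all entries passed and their median was -0.58. With library totals alone, 9 were lower and 15.8% of all entries passed. The 19.3% and 15.8% also cover both directions. At EGME50, 0 passed by edgeR (0 at an unadjusted p under 0.05), against 0.943% of all entries (0.0363% lower), with a median of -0.30. The 2 tables come from the same libraries, so they are not separate samples.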

How the data were processed

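Small RNA of sperm from 39 males, 1 library each, was read from 4 tables that the authors deposited as raw counts per feature on the sense strand. Per the labels' protocols, the mirVana kit with DNase gave the RNA, and libraries were made from 10 ng of it with an Ion RNA-seq kit. The submitters' processing notes name FastQC, Bowtie and DESeq2, whose versions are not given in the sources used here. The tRNA rows repeated by an identical row were taken as 1, and 2 rows without an anticodon, with 3.77e-06% of the counts, stayed out of the anticodon sums. Counts were tested with edgeR 4.0.16 (R 4.3.3, limma 3.58.1): TMM scaling, filterByExpr by group, robust quasi-likelihood fits over all 39 libraries, two-sided, adjusted by Benjamini-Hochberg over 190 rows or 47 anticodons, with a threshold of 0.05. The kept rows held 99.998% of the counts. Shares and log2 ratios were compared by permutation tests (scipy 1.17.1, numpy 2.4.6, pandas 2.3.3, matplotlib 3.10.9), exact where a group had 9 males. A test planned for the total leucine share is not reported, since it is a score over the members. The alternatives were DESeq2 1.42.0, limma-voom, other scalings and filters, the chip as a block, a depth covariate, and leaving out each library. Only the edgeR test of rows at EGME75 was tried on simulated counts, in which the rows were independent. The other tests were not checked in this way. The members, lists and tests were chosen with earlier results of these data known. Anticodons were named in full, with the rows past the threshold at EGME75 and the 5 with the largest share (mean of at least 10 counts). No tRNA sequences or coordinates were used, since the annotation at hand was for another assembly than the tables.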

Additional observations from a re-analysis of the deposited data

Results flagged for a closer look

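In 44 groups of values, the highest or lowest male was checked for a gap to the nearest other male that was wide for the range of its group. For independent values with a normal spread, chance alone gives such a gap in about 1 of 20 groups. The CPM values were not on a log scale and the groups share libraries, so that rate may not hold here. The check flagged 6 values, and whether that is more than chance gives was not tested. At EGME60, replicate 6 had 1.367e+05 CPM of LeuAAG, where the next male had 62040, and 4041 CPM of LeuCAG, where the next had 2592. EGME60 replicate 30 had 2.357e+04 CPM of LeuCAA, where the next had 15470. At EGME75, replicate 23 had 4691 CPM of LeuCAG, where the next had 2775, and 4.816e+04 CPM of LeuTAG, where the next had 32060. EGME75 replicate 16 had the lowest LeuTAG share of leucine counts at 30.16%, where the next had 32.99%, in the group with the narrowest spread of that share.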

How the results depend on the processing

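No pairing by male was possible, because each library held the RNA of a different male. The chip was used as a block in the alternative fits. LeuCAA and LeuTAA were lower at EGME75, and had falling slopes, past the threshold under every alternative run, with values from -1.62 to -1.07 and from -1.65 to -1.02 at EGME75. The number of leucine anticodons past the threshold was 2 at EGME75, 5 with library totals, 3 with all rows as deposited and 2 to 3 without 1 library, and for the slope 2, 5 with library totals and 2 to 5 without 1 library. At EGME60 it was 3, 2 with library totals (LeuAAG and LeuTAG, both higher, and neither LeuCAA nor LeuTAA), 0 with the chip as a fixed block and 1 to 4 without 1 library. From EGME50 to EGME60 it was 1, but 0 with relative log expression (RLE) scaling, library totals, no filter or the chip block, 2 with the largest row of each anticodon alone (chosen after seeing the data), and 0 to 2 without 1 library. From EGME60 to EGME75 it was 2, but 0 with library totals or the chip block, 1 with limma-voom, with its random chip term or with depth as a covariate, and 0 to 2 without 1 library.

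The number of leucine rows past the threshold at EGME75 was 11, 7 with no filter or with the chip block, and 7 to 12 without 1 library. For the slope it was 11, 6 with no filter, 7 with all rows as deposited or with the chip block, and 7 to 12 without 1 library. At EGME60 it was 2, 5 with RLE scaling or DESeq2, 6 with library totals, 4 with all rows as deposited or with depth as a covariate, 1 with limma-voom with or without the random chip term, 0 with the chip block or with only the compared groups, and 0 to 8 without 1 library. The anticodon shares past the threshold numbered 5 at EGME75 and 3 with all rows as deposited, and 3 at EGME60, where all rows as deposited gave 0 and leaving out 1 library 0 to 4. The row ratios past the threshold were 1, 4 and 14 at the rising doses and 0 to 4, 3 to 6 and 12 to 15 without 1 library.

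Values that changed sign were small, and none passed the threshold in the comparison as reported. The LeuCAG share at EGME60 was -0.2234 points with all rows as deposited and -0.06547 to 0.1369 without 1 library. Row chr1.trna10114-LeuTAA was at 0.01782 at EGME75 with library totals and at -0.4808 to 0.004708 at EGME60 without 1 library. At EGME50, with the chip block, LeuAAG was at -0.05335, LeuCAA at 0.06747 and LeuTAG at -0.01069. At that dose LeuAAG was at -0.01455 with its largest row alone and LeuTAA at -0.01954. LeuTAA was also at -0.004304 when GlyGCC, SerGCT and MetCAT were left out of the scaling, and at -0.02161 with depth as a covariate. Without 1 library, LeuAAG ran from -0.009755 to 0.1706, LeuCAA from -0.1555 to 0.04998 and LeuTAA from -0.08507 to 0.1019. The causes were not tested. The EGME75 libraries had the lowest depth, and the fewest leucine counts in a library were 5643.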
